A study of Mus musculus with 4 samples.

Results

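The genes described here are those of the cytosolic ribosomal proteins, taken as the protein-coding genes of GENCODE M21 (mouse build GRCm38) whose symbols begin with Rpl or Rps and a number, together with Rplp0, Rplp1, Rplp2 and Rpsa, and without the ribosomal S6 kinases. The rule gave 83 genes, 32 of the small subunit and 51 of the large subunit, of 34866 identifiers in the deposited table. RNA was sequenced from wild-type mouse neural stem and progenitor cells of the E11.5 cerebral cortex, grown as neurospheres (free-floating spheres of cells) to day 5. The triple knockdown cells were transduced with 3 lentiviral vectors at once at a multiplicity of infection of 10 each, so that short hairpin RNAs targeted Phf21b (vector pCS-EG-shPhf21b), Zfp7 (vector pLV-EG-shZfp7) and Zfp57 (vector pLV-EG-shZfp57). The shControl cells received 1 vector (CS-EG-shControl) at a multiplicity of infection of 30, so the number of vectors and part of the backbone differed between the groups as well as the hairpins. Each group had 2 libraries. Nothing in the labels says that these came from separate cultures or litters, and the p-values therefore measure only the spread between the libraries, which may be technical.

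A ribosome is built from a small subunit, which binds the mRNA and reads its codons, and a large subunit, which joins amino acids and lets the new chain out through a tunnel. Nearly every ribosomal protein is needed in equal number, and cells make them together: their mRNAs start with a run of pyrimidines, the 5′ terminal oligopyrimidine (TOP) tract, through which the kinase mTOR and the RNA-binding protein Larp1 control how strongly they are translated. Dividing progenitors of the embryonic brain make many ribosomes, and inherited loss of a single copy of several of these genes in humans causes Diamond-Blackfan anemia, in which red blood cell production fails. A genome such as that of the mouse also carries many processed copies of ribosomal protein genes, made by reverse transcription of their mRNAs.

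The start of the transcript was read from the RefSeq promoter table (GRCm38.p6), which held 63 of the 83 genes. A tract was counted when the annotated first base was a C with a C or T before it and 4 bases after it that were each C or T, on the strand of the gene alone. It stood exactly at an annotated start in 13 of the 63 genes (20.6%), against 2.22% of 27025 genes with a promoter in the table, and within 10 bases of the start in 32 of the 63 (50.8%), against 20.9% of all. The stretches below are shown as examples of the tract. Each runs from 40 bases before the start to 20 bases from it, on the gene's own strand, with the pyrimidine run around the start in capitals.
Rps6, minus strand, chr4:86857348-86857407: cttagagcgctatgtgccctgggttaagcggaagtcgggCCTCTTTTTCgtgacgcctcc
Rps15a, minus strand, chr7:118116128-118116187: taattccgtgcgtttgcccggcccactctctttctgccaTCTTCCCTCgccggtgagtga
Rps18, minus strand, chr17:33955646-33955705: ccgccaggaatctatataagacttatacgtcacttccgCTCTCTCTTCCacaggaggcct
Rpl14, plus strand, chr9:120571477-120571536: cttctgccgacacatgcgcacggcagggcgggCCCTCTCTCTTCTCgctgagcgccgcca
Rpl38, plus strand, chr11:114668540-114668599: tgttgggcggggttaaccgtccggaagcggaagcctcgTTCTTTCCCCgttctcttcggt
Rplp2, plus strand, chr7:141447611-141447670: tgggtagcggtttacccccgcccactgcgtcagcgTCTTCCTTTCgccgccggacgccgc
The pyrimidine run of these 6 genes was 9 to 14 bases long, counted on both sides of the start. From the annotated first base onward it was 5 to 9 bases. The genes with a tract within 10 bases of the start had a median log2 fold change of 0.13 (31 tested, 24 above 0), and those without had 0.14 (29 tested, 25 above 0). No test was made of this, since an annotated start can lie some bases from the one a cell uses.

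Library totals were 17901386 and 15170491 estimated counts in the triple knockdown and 20779211 and 14694387 in shControl. All levels below are CPM, counts scaled to a common library size with TMM factors. The 3 targeted genes were low throughout: Zfp57 had 10.7 and 9.32 CPM in the triple knockdown against 14.6 and 11.8 CPM in shControl, Phf21b had 5.49 and 6.45 against 7.25 and 7.36, and Zfp7 had 1.97 and 0.977 against 1.67 and 2.25. None of the 3 passed the test (edgeR adjusted p of 0.341 for Zfp57, 0.644 for Phf21b and 0.800 for Zfp7). All 9 markers of dorsal telencephalic progenitors were detected, led by Fabp7, and 0 of the 9 passed the test; their summed level was 20640 and 23342 CPM in the triple knockdown and 23017 and 28072 CPM in shControl. Of 5 neuronal markers, Tubb3 (−0.72 on the log2 scale) and Nsg2 (−0.56) were called lower in the triple knockdown, and the summed level of the 5 was 342 and 358 CPM against 504 and 441 CPM. The summed level of 6 red blood cell markers was 36.9 and 32.9 CPM against 22.9 and 25.2 CPM, with Hbb-y called higher (0.63) and the erythroid marker Alas2 at or near 0. With either knockdown library left out, Tubb3, Nsg2 and Hbb-y were no longer called (adjusted p of 0.066 to 0.97), nor was Nsg2 without shControl replicate 1 (0.084). Myeloid (26.8 to 33.2 CPM against 28.7 to 32.6 CPM), endothelial (4.80 to 4.82 against 3.86 to 5.18) and mesenchymal (38.1 to 41.0 against 39.3 to 42.0) markers had overlapping sums. The myeloid sum joined opposite moves of its most abundant markers. Ptprc was higher in the triple knockdown (0.63, edgeR adjusted p 0.145) and Lyz2 lower (−0.45, edgeR adjusted p 0.234), and neither passed the test. Whether these shifts had a part in the ribosomal protein values was not tested; in bulk RNA, fewer cells of a type and less RNA per cell cannot be told apart.

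Ribosomal protein mRNAs made up a large share of every library. The 83 genes held 18.8% and 17.3% of all counts in the triple knockdown libraries, against 15.7% and 16.2% in the shControl libraries. Both knockdown shares lay above both control shares. The share of counts from genes of mitochondrial DNA, which competes for the same total, moved the other way: 26.6% and 28.5% in the triple knockdown against 30.3% and 33.9% in shControl. After TMM scaling the ribosomal protein sum was 179734 and 170987 CPM in the triple knockdown and 151676 and 178659 CPM in shControl, so the groups overlapped on that scale. The ratio of large to small subunit counts was 1.26 in each knockdown library, against 1.26 and 1.25 in the shControl libraries.

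Gene by gene, no ribosomal protein gene passed the test. Of the 83 genes, 80 had enough counts to be tested, and 0 of the 80 reached an adjusted p of 0.05 in edgeR's quasi-likelihood test, where 1.37% of the 14050 genes tested did (192 genes, 76 higher or 0.541% and 116 lower or 0.826%). At an unadjusted p under 0.05 there were 3 (Rps18, Rps2 and Rpl6), against 12.0% of all genes tested, and DESeq2 and limma-voom likewise called 0 after adjustment. That unadjusted count depended on the setting and moved both ways. It was 27 of 80 with scaling by library size alone (9.54% of all genes), 17 with DESeq2 (3.52%) and 7 with limma-voom (12.6%). With replicate number added to the model as a block it was 1 (10.5%). The 80 genes were nevertheless not spread evenly around 0: 69 had a log2 fold change above 0, against 48.9% of all genes tested, with a median of 0.13 where all tested genes had −0.01. The median was also −0.01 for 171 other abundant genes, those averaging 500 CPM or more. That set still held abundant near-identical copies of ribosomal protein genes, described further down, and Rpl36al, a ribosomal protein gene outside the rule. The median was 0.11 for the small subunit (28 of 32 above 0) and 0.13 for the large subunit (41 of 48 above 0). The standard error of a single gene ran from 0.13 to 0.21, larger than or close to most of the fold changes themselves.

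**Figure D1:**
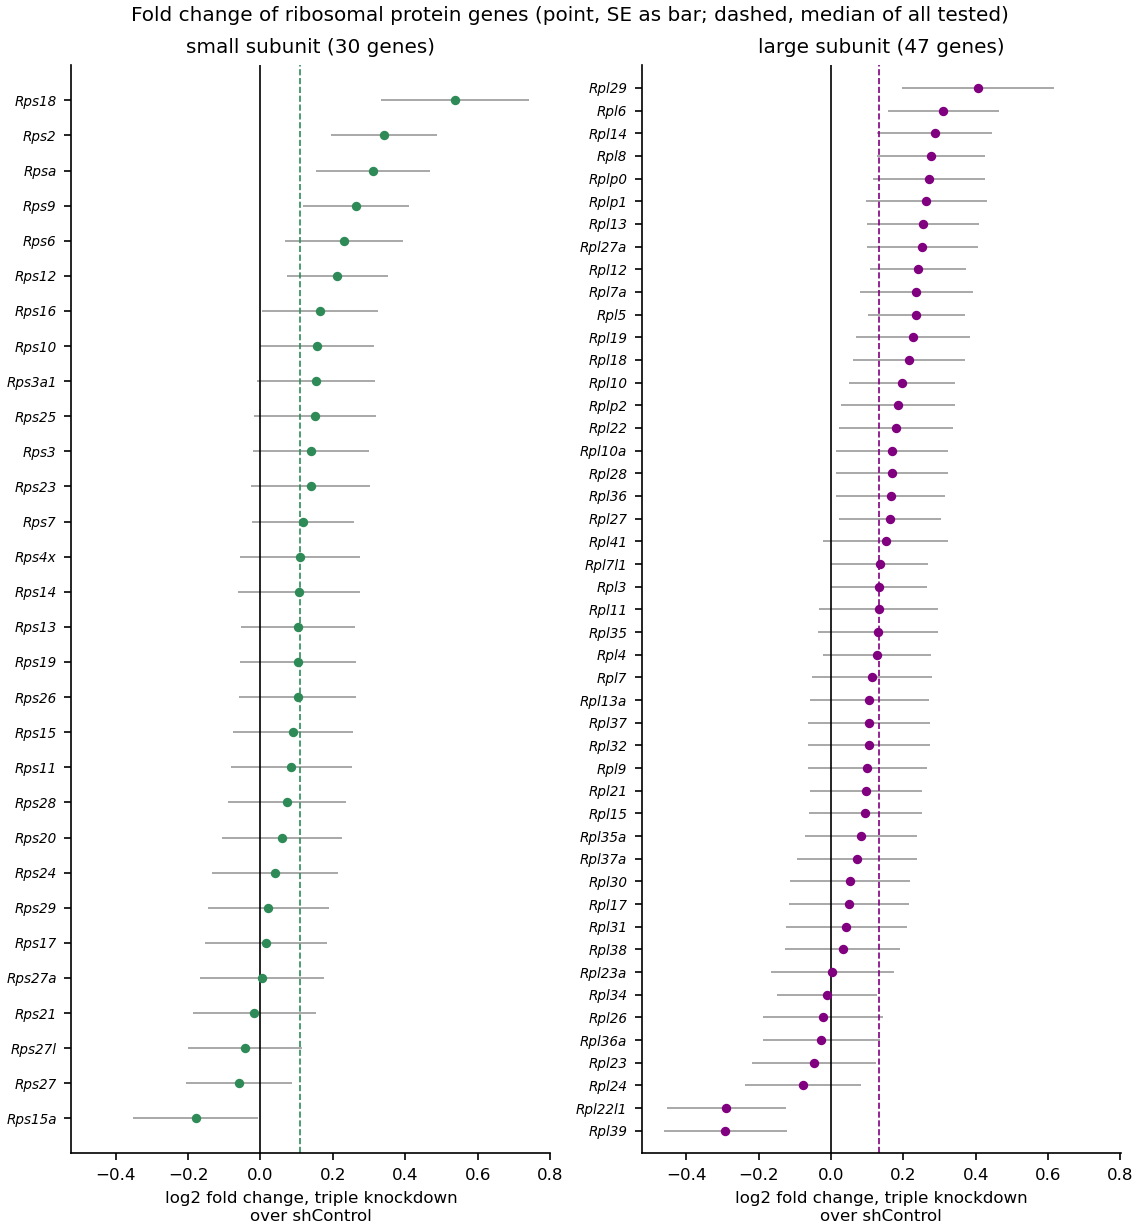
Log2 fold change of ribosomal protein genes, triple knockdown over shControl, for 30 of the 32 tested small subunit genes (left) and 47 of the 48 large subunit genes (right). Points are edgeR estimates, bars 1 standard error, and dashed lines the medians of 0.11 and 0.13 over all tested ribosomal protein genes of each subunit. Most points lie right of 0 by about as much as their own standard error.

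How far the groups separated depended on the control library. Both knockdown libraries lay above both control libraries for 35 of the 80 genes (12 of the small and 23 of the large subunit), against 19.6% of all genes tested. In none of the 80 did both lie below (21.7% of all genes), and in 45 the groups overlapped. Against shControl replicate 1, knockdown replicate 1 was higher for 76 of 80 genes with a median log2 ratio of 0.26, and knockdown replicate 2 for 79 of 80 with a median of 0.19. Against shControl replicate 2, the same libraries were higher for 54 of 80 (median 0.06) and 39 of 80 (median 0.00). The control libraries themselves differed by a median log2 ratio of 0.20 (replicate 2 over 1), and the knockdown libraries by −0.07. Without shControl replicate 1 only 45 of the 80 genes had a log2 fold change above 0, the medians were −0.01 for the small and 0.05 for the large subunit, and 6 genes were called, against 2.04% of all genes: Rps2 (0.45), Rplp0 (0.45) and Rpsa (0.43) higher, and Rps15a (−0.39), Rpl39 (−0.52) and Rpl22l1 (−0.54) lower. Without shControl replicate 2 it was 79 of 80, both medians were 0.23, and Rplp1 alone was called (0.41, against 4.10% of all genes).

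**Figure D2:**
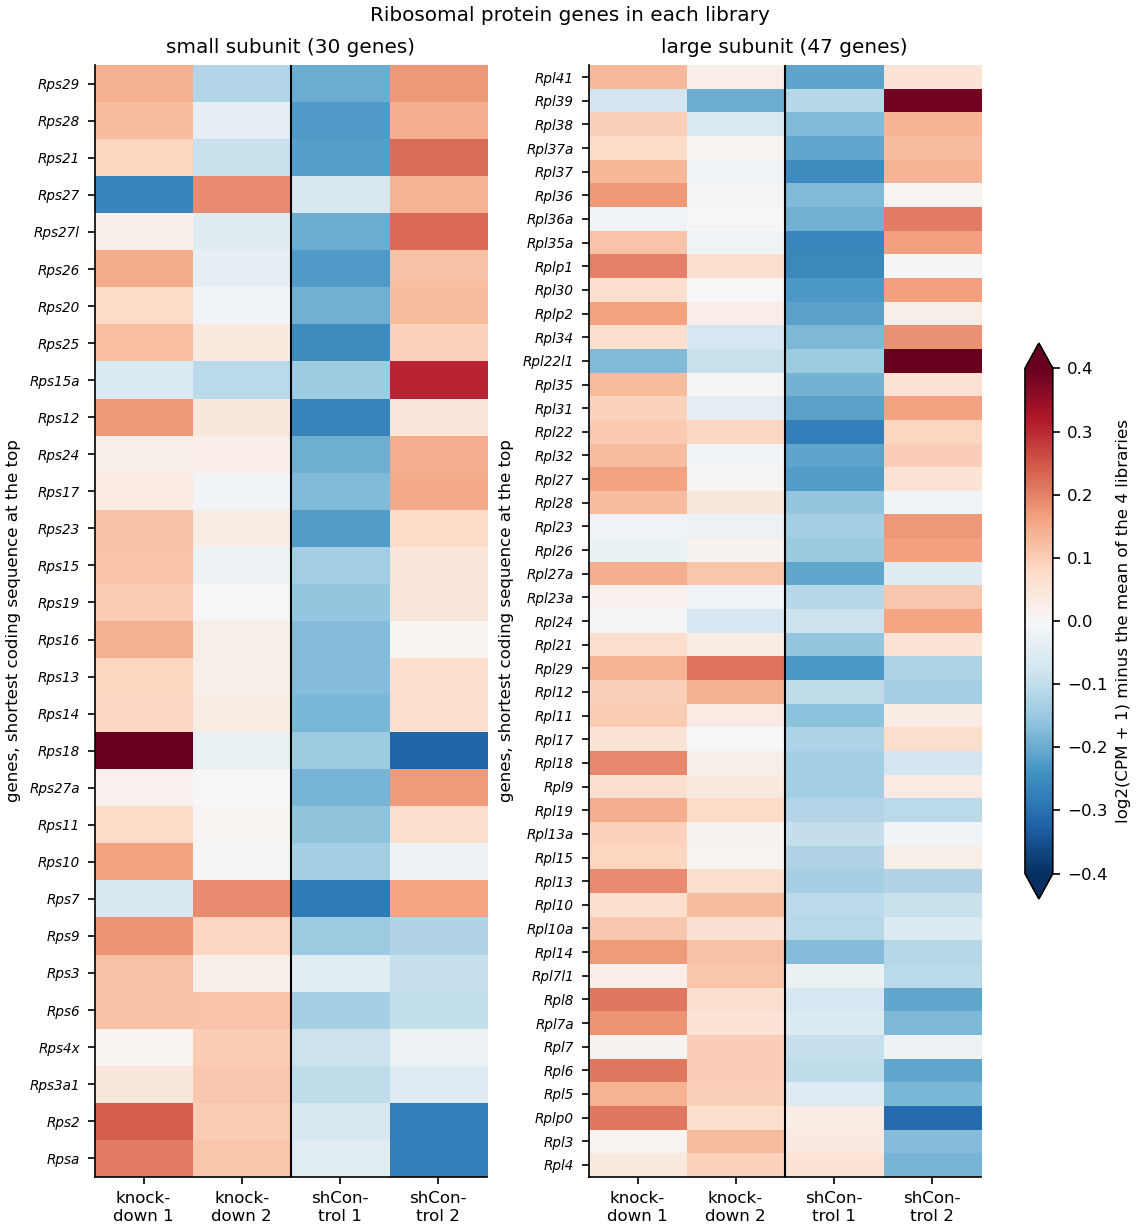
Level of 30 small and 47 large subunit genes in the 4 libraries, as log2(CPM + 1) minus the gene's own mean, with the small subunit on the left and the large on the right, with the shortest coding sequence at the top. shControl replicate 1 is below the mean for most genes, while shControl replicate 2 is above it for the short genes and below it for the long ones.

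In the small subunit, the 4 genes with the highest mean CPM at their own entries overlapped between the groups. Rps24, needed to process the small subunit rRNA, had 5658 and 5677 CPM in the triple knockdown against 4864 and 6160 CPM in shControl. Rps27a, made as a fusion with ubiquitin, had 4555 and 4493 CPM against 3957 and 5071 CPM. In both, the 2 knockdown libraries lay between the 2 control libraries, and the log2 fold changes were 0.04 ± 0.17 (SE) for Rps24 and 0.00 ± 0.17 for Rps27a, with edgeR adjusted p of 0.963 and 0.997. Rps25, needed for initiation at some viral internal ribosome entry sites, had 3957 and 3736 CPM against 3058 and 3874 CPM, which also overlap (0.15 ± 0.17). Rps15a, a core protein that binds the small subunit rRNA directly, had 4451 and 4290 CPM in the triple knockdown against 4185 and 5709 CPM in shControl. Its estimate, −0.18 ± 0.17, was the lowest of the subunit. shControl replicate 2 was the highest of the 4 libraries, and without it the estimate was 0.08.

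The small subunit genes with the most positive estimates were Rps18, Rps2, Rpsa and Rps9. Rps2, which lines the entry of the mRNA channel, had 659 and 598 CPM in the triple knockdown against 533 and 460 CPM in shControl. Rpsa, a neighbour of Rps2 that is also known as the laminin receptor, had 1889 and 1769 CPM against 1592 and 1354 CPM. Rps9, an early binder of the small subunit rRNA, had 725 and 677 CPM against 578 and 588 CPM. All 3 genes were higher in both knockdown libraries than in either control library, as were 19.6% of all genes tested. They were picked for their high estimates, so this separation is not separate evidence. Their log2 fold changes were 0.34 ± 0.15 for Rps2, 0.31 ± 0.16 for Rpsa and 0.26 ± 0.15 for Rps9, with edgeR adjusted p of 0.299, 0.424 and 0.481. Rps6, the protein that the S6 kinases phosphorylate downstream of mTOR, had 3140 and 3132 CPM in the triple knockdown against 2639 and 2704 CPM in shControl. Its replicates lay close together and the groups apart, but the shared estimate of the spread gave 0.23 ± 0.16 and an adjusted p of 0.627. Rps18 had the largest estimate of all 80 genes (0.54 ± 0.20, adjusted p 0.205) at only 12.2 and 8.21 CPM against 7.52 and 6.54 CPM, and nearly all counts of its sequence group stood at near-identical copies, as described further down. At the negative end stood Rps27 (−0.06 ± 0.15), its paralog Rps27l (−0.04 ± 0.16) and Rps21 (−0.02 ± 0.17), each within its standard error of 0.

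In the large subunit, Rpl41, a very short protein at the contact between the subunits, had the highest mean CPM at its own entry. It had 5767 and 5380 CPM in the triple knockdown against 4560 and 5477 CPM in shControl. Rpl23, of the subunit interface, had 5083 and 5051 CPM against 4677 and 5795 CPM. Rpl23a, which sits at the mouth of the exit tunnel where it contacts the signal recognition particle, had 4545 and 4456 CPM against 4148 and 4833 CPM. In all 3, and in Rpl32 (4123 and 3752 CPM against 3271 and 4048 CPM), the groups overlapped. The log2 fold changes were 0.15 ± 0.17 for Rpl41, −0.05 ± 0.17 for Rpl23, 0.00 ± 0.17 for Rpl23a and 0.11 ± 0.17 for Rpl32.

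Rpl6, Rpl14 and Rpl8 had the most positive estimates in the large subunit apart from Rpl29, which had under 10 CPM. Rpl6 had 1400 and 1295 CPM in the triple knockdown against 1127 and 1047 CPM in shControl. Rpl14, which touches Rpl6 on the subunit surface, had 2169 and 2090 CPM against 1709 and 1783 CPM. Rpl8, which reaches close to the site of peptide bond formation, had 963 and 870 CPM against 794 and 720 CPM. Both knockdown libraries were above both control libraries in each of these genes, as in 19.6% of all genes tested. Since the genes were picked for their high estimates, this too is not separate evidence. The log2 fold changes were 0.31 ± 0.15 for Rpl6, 0.29 ± 0.16 for Rpl14 and 0.28 ± 0.15 for Rpl8, and the adjusted p were 0.405, 0.482 and 0.467. At the other end, Rpl24, which forms a bridge to the small subunit, had 2064 and 1979 CPM against 1954 and 2316 CPM (−0.08 ± 0.16), again with overlapping groups.

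The remaining genes with both knockdown libraries above both controls had smaller estimates. In the small subunit they included Rps3, Rps3a1, Rps4x, Rps10 and Rps16, with log2 fold changes from 0.11 (Rps4x) to 0.16 (Rps16). In the large subunit they included Rpl7, Rpl7a, Rpl9, Rpl10, Rpl10a, Rpl13, Rpl13a, Rpl18, Rpl19, Rpl27a and Rpl28, from 0.10 (Rpl9) to 0.25 (Rpl13). Rpl13 had 1645 and 1511 CPM in the triple knockdown against 1318 and 1328 CPM in shControl, and Rpl10, which completes the large subunit late in its maturation, had 677 and 705 CPM against 600 and 607 CPM. In both genes the replicates of each group differed by less than the groups did. Both were taken from genes already chosen for separating the groups, so this is not separate evidence.

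The proteins of the P stalk, the flexible arm that recruits translation factors to the large subunit, had the highest median log2 fold change of the structural groups. Rplp0, the base of the stalk, had 1159 and 1048 CPM in the triple knockdown against 1021 and 808 CPM in shControl. Rplp1 and Rplp2, the acidic proteins that dimerize on it, had 3665 and 3338 CPM against 2665 and 3168 CPM, and 1890 and 1723 CPM against 1458 and 1719 CPM. Rpl12, which holds the stalk to the rRNA, had 95.3 and 98.4 CPM against 83.0 and 80.9 CPM. All 4 were higher in both knockdown libraries than in either control, although Rplp2 differed from shControl replicate 2 by only a few CPM. The same separation was seen in 35 of the 80 ribosomal protein genes and in 19.6% of all genes tested. Their median log2 fold change was 0.25, with 0.27 ± 0.15 for Rplp0, 0.26 ± 0.17 for Rplp1, 0.19 ± 0.16 for Rplp2 and 0.24 ± 0.13 for Rpl12, and the lowest adjusted p was 0.481. The Rpl12 values cover its own entry only. Most counts of its sequence stood at Gm10275, a copy with identical coding bases. That copy had 2010 and 1908 CPM in the triple knockdown against 1639 and 1812 CPM in shControl (0.18 ± 0.16).

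The other structural groups were smaller. Rpl5 and Rpl11 bind the 5S rRNA and, when not built into ribosomes, hold back the p53 inhibitor Mdm2. Rpl11 had 3174 and 3021 CPM in the triple knockdown against 2635 and 3020 CPM in shControl, and Rpl5 had 76.3 and 73.9 CPM against 66.7 and 60.8 CPM. Both separated, Rpl11 by less than 1 CPM from shControl replicate 2, with estimates of 0.13 ± 0.16 and 0.24 ± 0.13. Of all genes tested, 19.6% separated in this direction. The Rpl5 values cover its own entry only. Most counts of its sequence stood at Gm15500, a copy with identical coding bases. That copy had 2345 and 2498 CPM in the triple knockdown against 2291 and 2300 CPM in shControl (0.08 ± 0.16). Of the proteins lining the exit tunnel, Rpl4 had 837 and 869 CPM against 846 and 715 CPM, and Rpl17 had 3511 and 3376 CPM against 3103 and 3552 CPM. Rpl39, a very small protein of the tunnel wall, had 3377 and 3100 CPM against 3287 and 4641 CPM. All 3 overlapped between the groups, and the estimates were 0.13 ± 0.15, 0.05 ± 0.17 and −0.29 ± 0.17. The value of Rpl39 was the lowest of all 80 genes, and without shControl replicate 2 it was −0.01.

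Of the 18 genes fixed as Diamond-Blackfan anemia genes from knowledge of the human disease, 15 had a log2 fold change above 0 and 0 were called, with a median of 0.09 against 0.13 for all ribosomal protein genes. In 4 of them both knockdown libraries lay above both controls (Rps10, Rpl5, Rpl11 and Rpl18), a share near the 19.6% of all genes tested, and in 14 the groups overlapped. Each was read from its own entry, and most counts of the Rpl5 sequence stood at a copy. Rps19, the gene most often affected in patients, had 2169 and 2024 CPM in the triple knockdown against 1816 and 2088 CPM in shControl, an overlap (0.10 ± 0.16).

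Some ribosomal proteins have a paralog, and some of these paralogs can take their place in the ribosome. Rpl22l1 replaces Rpl22, and in the mouse Rpl22 is known to hold down Rpl22l1 by binding its mRNA. Rpl22l1 had 1709 and 1816 CPM in the triple knockdown against 1751 and 2557 CPM in shControl (−0.29 ± 0.16, adjusted p 0.496), while Rpl22 had 1510 and 1488 CPM against 1160 and 1489 CPM (0.18 ± 0.16, adjusted p 0.721). Neither gene passed the test and both overlapped between the groups. The ratio of Rpl22l1 to Rpl22 within a library did separate: it was 1.13 and 1.22 in the triple knockdown against 1.51 and 1.72 in shControl, a difference of −0.45 on the log2 scale. An exact two-sided permutation test gave p = 0.333, the smallest that 2 libraries against 2 allow. The ratio of Rpl7l1 to Rpl7 was 0.0193 in both knockdown libraries, against 0.0200 and 0.0180 in shControl. Rps27l, a p53-responsive paralog, came to 0.389 and 0.405 of Rps27 in the triple knockdown and 0.390 and 0.383 in shControl once the near-identical copies of Rps27 were counted with it. Against the entry of Rps27 alone the ratio was 35.4 and 24.5, against 26.4 and 30.7 in shControl. The 3 genes not tested are also paralogs, known in mammals for expression in muscle or germ cells: Rpl3l was at 0 in every library, Rpl10l had 1 and 2 counts in the triple knockdown and 0 in both controls, and Rpl39l had 8.48 and 2.11 counts against 1.06 and 1.06.

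**Figure D3:**
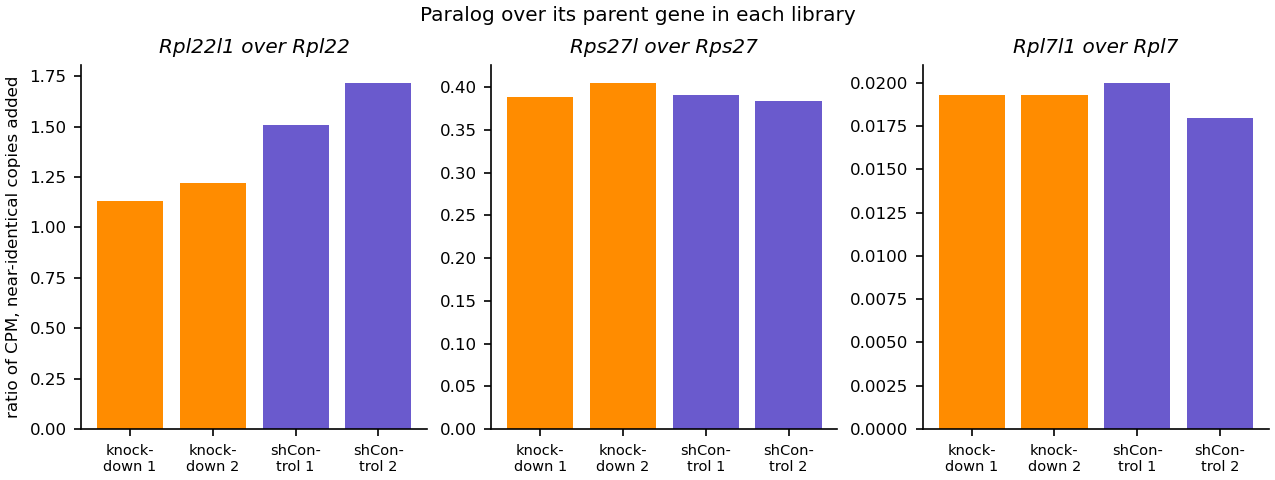
Ratio of CPM of 3 paralogs to their parent genes in each library, near-identical copies added to both, with triple knockdown bars on the left and shControl bars on the right of each panel. Rpl22l1 over Rpl22 is 1.13 and 1.22 in the knockdown and 1.51 and 1.72 in shControl; the other ratios lie within 0.383 to 0.405 (Rps27l) and 0.0180 to 0.0200 (Rpl7l1).

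The levels of several ribosomal protein genes could not be read from their own entries. A total of 291 other genes in the table, 282 annotated as pseudogenes and 9 as protein coding, shared at least 50% of the 31-base words of a transcript with a ribosomal protein gene, and 250 of them had counts. Among the 83 genes, tested or not, 70 had at least 1 such copy. In 14 over 50% of the summed counts stood at copies, and in 8 over 90%. Rps12 had 223 and 204 CPM in the triple knockdown against 164 and 204 CPM in shControl, while its copy Rps12-ps3 (chr19:59322290-59322783, annotated as protein coding) had 3770 and 3621 CPM against 3090 and 3826 CPM. Over the 399 coding bases the copy had 0 mismatches. Rps27 and Rps27rt (chr9:114982366-114982739) were identical over 255 coding bases, as were Rpl5 and Gm15500 (chr7:114705217-114706235) over 894 and Rpl12 and Gm10275 (chr10:29698746-29699380) over 498. Reads that lie wholly within such coding bases cannot be assigned to the gene or the copy by sequence; the sources used here do not say how such reads were split.

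Other copies differ at a few bases. The stretches below, from GENCODE M21 transcripts, show 61 coding bases of 3 genes and their copies around the first usable difference, in capitals, since these pairs carried the largest fold changes or the most uneven split. Positions are counted from the first base of the start codon, with the base of the gene first and that of the copy last. Rps18 and Gm10260 (chr13:97760072-97760632) differed at 4 of 459 coding bases, among them T186C; Rpl29 and Gm13841 (chr5:115801677-115802159) at 3 of 483, among them C72A; and Rpl34 and Rpl34-ps1 on chromosome 6 at 2 of 354, among them T132C.
Rps18, coding bases 156 to 216: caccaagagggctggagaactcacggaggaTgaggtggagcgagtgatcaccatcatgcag
Gm10260: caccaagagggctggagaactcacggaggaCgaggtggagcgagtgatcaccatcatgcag
Rpl29, coding bases 42 to 102: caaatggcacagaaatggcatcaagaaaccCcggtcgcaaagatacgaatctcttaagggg
Gm13841: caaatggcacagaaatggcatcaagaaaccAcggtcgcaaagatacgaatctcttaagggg
Rpl34, coding bases 102 to 162: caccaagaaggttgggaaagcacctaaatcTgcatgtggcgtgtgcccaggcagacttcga
Rpl34-ps1: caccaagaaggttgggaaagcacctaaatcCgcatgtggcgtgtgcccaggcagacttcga
Rps18 held 0.422% of the counts of its group and Rpl29 1.14%. Gm10260 had 1933 and 1772 CPM in the triple knockdown against 1554 and 1727 CPM in shControl, and Gm13841 had 698 and 632 CPM against 542 and 559 CPM.

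Adding the copies to each gene changed levels far more than it changed the comparison. Rps18 with its copies had 2319 and 2114 CPM in the triple knockdown against 1848 and 2064 CPM in shControl, and its log2 fold change was 0.18 ± 0.16 in place of 0.54. Rpl29 with its copies had 709 and 643 CPM against 549 and 568 CPM, at 0.28 ± 0.15 in place of 0.41. Per kilobase of the median protein-coding transcript, the tested genes spanned 11.0 to 10647 CPM alone (median 2749) and 51.6 to 10648 CPM with copies (median 3287). The number of tested genes under 300 CPM was 11 alone and 1 with copies; that 1 gene, named after its value was seen, was Rpl7l1. In the fit of summed counts 0 of 80 were called, 69 were above 0, and the medians were 0.11 for the small and 0.13 for the large subunit. Genes and copies together held 22.6% and 20.7% of all counts in the triple knockdown against 18.8% and 19.3% in shControl, and copies held 16.1% to 16.7% of these in every library.

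**Figure D4:**
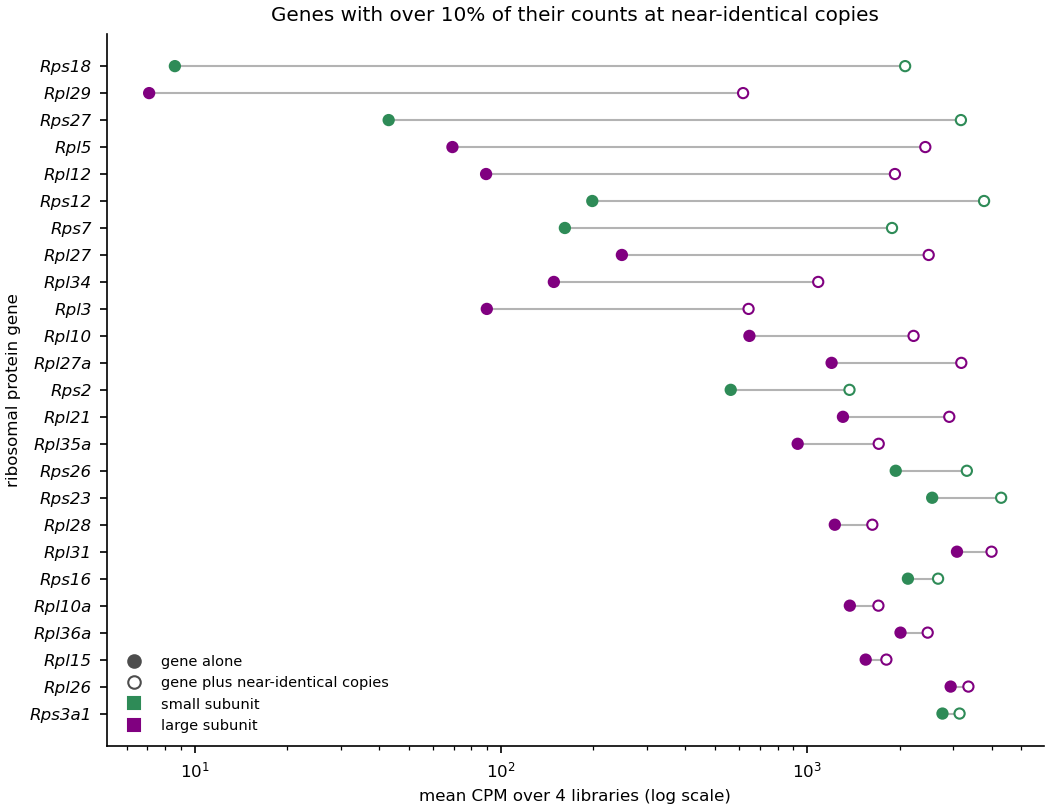
Mean level over the 4 libraries (CPM, log scale) of the 25 ribosomal protein genes with over 10% of their counts at near-identical copies. Filled points are the gene alone and open points the gene plus its copies; Rps18 and Rpl29, under 10 CPM alone, stand at the top with the widest gaps.

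The copies themselves contained calls. Of the 291 copies, 77 had enough counts to be tested and 5 were called (6.49%, against 1.37% of all genes), named here after their values were seen. Rps13-ps1 had 39.5 and 50.5 CPM in the triple knockdown against 28.6 and 22.0 CPM in shControl (0.82 ± 0.15, adjusted p 2.4e-04), and Gm4294, a copy of Rpl15, had 8.26 and 5.86 CPM against 17.0 and 14.4 CPM (−1.15 ± 0.19, adjusted p 2.6e-05). Gm16409, a copy of Rps6, had 58.7 and 52.4 counts against 4.03 and 2.02 counts. Gm6136, a copy of Rpl6, had 24.4 and 35.0 counts against 1.86 and 1.81 counts. Rpl30-ps9 was at 0 in both knockdown libraries, against 51.1 and 19.3 counts in shControl. All 5 separated the groups, and the genes they copy were not called. Without triple knockdown replicate 2, Rps13-ps1, Gm4294 and Gm6136 were no longer called (adjusted p of 0.16, 0.076 and 0.13).

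Within the family the values followed the length of the coding sequence. Across the 80 tested genes the coding length ranked with the ratio of the control libraries (replicate 2 over 1) at a Spearman correlation of −0.84, with the ratio of the knockdown libraries (replicate 2 over 1) at 0.32, and with the log2 fold change between the groups at 0.55. These are correlations across genes, which share the same 4 libraries and are not independent replicates. In 1288 other genes with a coding length under 1500 bases and at least 50 CPM, the same correlations were −0.63, 0.25 and 0.02. Among the 10 ribosomal protein genes with a coding length under 300 bases the median log2 fold change was 0.03, and it was 0.10 for 39 genes from 300 to under 500, 0.16 for 22 genes from 500 to under 800 and 0.24 for 9 genes from 800 upward. All 22 and all 9 genes of the longer bins had a log2 fold change above 0, as did 6 of 10 and 32 of 39 in the shorter bins. Over the same bins, shControl replicate 2 over replicate 1 had medians of 0.37, 0.28, 0.06 and −0.21, and in the other genes it had 0.24, 0.12, −0.08 and −0.21. With a smooth trend on coding length taken out of each library, 0 of the 80 genes were called, 67 were above 0 and the median was 0.10. GC content ranked with the log2 fold change at 0.38 in the ribosomal protein genes and at 0.02 in the others. It ranked with the ratio of the knockdown libraries (replicate 2 over 1) at −0.48 and −0.70, and with that of the control libraries at −0.21 and −0.11. The part of the libraries' differing length and GC trends in the fold changes was not tested beyond these values.

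**Figure D5:**
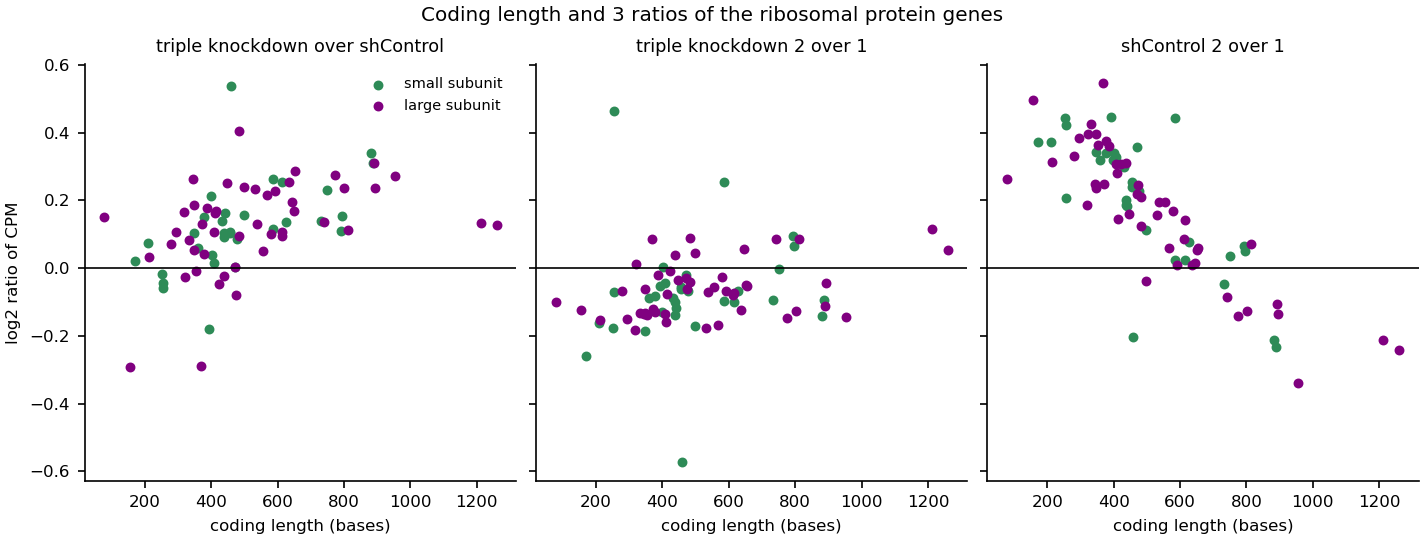
Coding length (bases) of each tested ribosomal protein gene against 3 log2 ratios of CPM: triple knockdown over shControl (left), knockdown replicate 2 over 1 (middle) and shControl replicate 2 over 1 (right), with the small subunit in green and the large subunit in purple. The right panel falls steadily with length (Spearman −0.84), the left panel climbs (0.55) and the middle panel is nearly flat (0.32).

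Genes that work beside the ribosomal proteins were read from lists of known roles, of which a single gene was called. The 15 translation factors and partners with TOP mRNAs had a median log2 fold change of 0.09 with 0 called; Eef1a1, the factor that brings aminoacyl-tRNA, had 4773 and 4934 CPM in the triple knockdown against 4774 and 4003 CPM in shControl. Tpt1, another TOP mRNA, had 2829 and 2846 CPM against 2825 and 2980 CPM. Of 15 regulators of TOP mRNAs and mTOR (median −0.11), Eif4ebp1, the translation repressor that mTOR phosphorylates, rose in the triple knockdown: it had 45.3 and 42.7 CPM, against 24.5 and 20.2 CPM in shControl, a log2 fold change of 0.97 ± 0.15 and an edgeR adjusted p of 4.8e-06. It was also called with any single library left out. The TOP-binding proteins Cnbp (355 and 390 CPM against 303 and 254 CPM, adjusted p 0.136) and Larp1 (9.38 and 10.0 CPM against 6.92 and 9.54 CPM, adjusted p 0.672) did not pass.

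Assembly of ribosomes was represented by 18 core factors, of which 0 were called and 12 had values above 0 with a median of 0.25. In 9 of the 18 both knockdown libraries lay above both controls, against 19.6% of all genes tested; the most abundant of the list, Ncl (nucleolin), had 108 and 123 CPM against 131 and 106 CPM, and Fbl (fibrillarin, which methylates rRNA) had 81.7 and 84.8 CPM against 75.7 and 65.8 CPM. The 8 genes of rRNA synthesis had a median of 0.10, the 12 chaperones and importers of ribosomal proteins 0.06, and the 10 transcription factors of ribosomal protein genes −0.10, with 0 called in each list. Polr1d and Polr1c, subunits shared by RNA polymerases I and III, had 238 and 240 CPM against 204 and 218 CPM, and 72.6 and 72.1 CPM against 57.2 and 54.2 CPM, both separating the groups without passing the test. Bccip, the chaperone of Rpl23, had 71.7 and 86.1 CPM against 86.0 and 78.7 CPM, and Nap1l4 had 58.4 and 70.5 CPM against 78.1 and 66.9 CPM. Among the transcription factors, Nfyb had 57.1 and 63.1 CPM against 52.9 and 52.1 CPM, and Tbpl1, whose counterpart in Drosophila starts transcription of ribosomal protein genes, had 44.7 and 57.3 CPM against 43.5 and 39.8 CPM; neither passed the test.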

How the data were processed

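The values deposited by the authors are estimated counts for each gene and library, without normalization. Per the submitters' processing notes, Salmon was used with GRCm38 and mm10; the sources used here do not give its version or the annotation release. The deposited estimated counts were rounded before testing. Identifiers were matched without version to GENCODE M21, which named 34582 of 34866. Genes were filtered with filterByExpr (minimum count 10) and tested with edgeR 4.0.16 (TMM factors, quasi-likelihood F test, two-sided, R 4.3.3), with Benjamini-Hochberg adjustment over 14050 genes and a threshold of 0.05; the script was tested on simulated data. DESeq2 1.42.0 and limma 3.58.1 were alternatives, beside other scalings and filters, pseudogenes added by symbol, a replicate block and each library left out. The addition of near-identical copies and the removal of a coding-length trend were chosen after seeing the data. CPM are TMM-scaled and comparable between genes only per length. Counting noise is small at these depths, and the 2 libraries per group limit the precision. The genes, their groups and the lists beside them were chosen with earlier results of these data known. Named genes were, in each subunit, the 4 of highest mean CPM and the 4 at each end of the fold changes, plus paralogs, structural groups, Rps6, Rps24 and Rps27a; from other lists, genes called and otherwise the 2 most abundant. Other genes named, among them Rps12, Rps19, Rpl13, Cnbp and Larp1, were chosen after their values were seen. Myeloid, endothelial and mesenchymal markers had 0 called. A few genes count in the totals but are not reported here singly.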

Additional observations from a re-analysis of the deposited data

How the results depend on the processing

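Ribosomal protein genes were called in no setting that kept all 4 libraries: the count stayed at 0 of 80 (0 of 82 with DESeq2 and with no filter, which tested more genes) under 2 other scalings, 2 other tools, 2 other filters, without genes of mitochondrial DNA, with pseudogenes or near-identical copies added, and with a coding-length trend removed. Leaving out single libraries gave 0 to 6 called (0 to 3 in each subunit), 45 to 79 genes above 0, and medians of −0.0090 to 0.23 in the small and 0.048 to 0.23 in the large subunit. The 6 calls and the lowest of the other values came without shControl replicate 1, and the highest counts above 0 and medians without shControl replicate 2. Genes called in the whole table were 192, against 105 with library size alone, 55 with DESeq2 and 44 to 614 with single libraries left out. Of all 80 genes, 8 changed sign with library size alone, 4 with the length trend removed, and 3 to 24 with single libraries left out. The rest of this account covers the 37 tested genes singled out by rule: those that changed sign were, with library size alone, Rpl23 (0.049), Rpl24 (0.016), Rps21 (0.085), Rps27 (0.027) and Rps27l (0.056); with no filter, Rpl23a (−0.0047) and Rps27a (−0.0043); and with the length trend removed, Rpl23a (−0.038), Rps21 (0.0093) and Rps27a (−0.037). With single libraries left out, these of the 37 spanned 0: Rpl17 (−0.047 to 0.16), Rpl22l1 (−0.54 to 0.022), Rpl23 (−0.20 to 0.13), Rpl23a (−0.10 to 0.13), Rpl24 (−0.20 to 0.062), Rpl32 (−0.042 to 0.28), Rps15a (−0.39 to 0.075), Rps21 (−0.22 to 0.23), Rps24 (−0.12 to 0.23), Rps25 (−0.013 to 0.34), Rps27 (−0.31 to 0.16), Rps27a (−0.17 to 0.21) and Rps27l (−0.24 to 0.20). The cause was not tested. The correlation of replicate 1 minus 2 between the groups over tested genes was −0.06. With 1 difference per group, this cannot tell whether libraries of the same replicate number were paired. With a replicate block 172 genes and 0 ribosomal protein genes were called. With 2 libraries per group, a lone library left in a group was assumed to vary like the other group.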
